A study of Homo sapiens with 3 samples.

Results

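The DNA replication and mitosis genes are 59 protein-coding genes chosen by name from the 26485 genes of the count table, 29 that act in S phase (MCM2 to CHAF1B) and 30 that act in G2 and mitosis (CCNA2 to PRC1). All 59 names were found. Total RNA was measured at 48 h in HEC1B, an established human endometrial cancer cell line. The PRMT6 knockdown group holds 2 libraries, each made with its own siRNA, siPRMT6-1 or siPRMT6-2, against PRMT6, an enzyme that methylates arginines of histones and of other proteins. The siNC control group holds 1 library, labelled wild type and made with the siNC siRNA. All 3 libraries share the cell line, the time and a stranded low-input library kit fed with 10 ng of total RNA. With 1 library for each siRNA, a ratio between libraries has no replicate, and its 95% interval covers counting error only.

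Cells entering S phase load the MCM helicase at origins, make deoxynucleotides and copy DNA with polymerases held by the PCNA clamp. Cells leaving G2 activate the cyclin A and cyclin B kinases, build a spindle, separate the chromosomes and divide. Many S phase genes are transcribed under E2F factors. Many G2/M genes are held back by the DREAM complex and driven by B-MYB and FOXM1 through the CHR promoter element. The CCAAT box, also searched below, is bound by NF-Y. Both sets of genes are widely read as a measure of how many cells of a culture are cycling. In bulk RNA, fewer cells in a phase and less RNA per cell cannot be told apart.

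The libraries held 381628 counts in siPRMT6-1, 362080 in siPRMT6-2 and 410916 in siNC, which is low. These are counts assigned to genes under the strand setting used, so they do not give the number of reads sequenced. The 59 genes took 0.411%, 0.389% and 0.395% of them in the same order. PRMT6 itself had 4 counts in siPRMT6-1, 7 in siPRMT6-2 and 25 in siNC, a depth-scaled ratio to siNC of 0.167 (exact binomial interval 0.0421 to 0.482) with siPRMT6-1 and 0.327 (0.120 to 0.778) with siPRMT6-2. The libraries differed in other ways. Interferon-stimulated genes, 42 on the list, summed to 363 counts in siPRMT6-1, 3266 in siPRMT6-2 and 276 in siNC. Of the 10 epithelial and endometrial carcinoma markers, the summed counts were 896, 1116 and 1638 in that order, with KRT8, KRT18 and PAX8 present and KRT19 and CDH1 at 0 in every library. KRT7, EPCAM, MUC1, CLDN3 and CLDN4 had at most 8 counts in any library. KRT8, which held most of the counts, shares exon bases with KRT18 on the opposite strand. Of the 7 leukocyte markers, which summed to 20, 58 and 17 counts, PTPRC, CD3E and CD14 were at 0 in every library and CD68 held nearly all counts. Of the 7 fibroblast markers, which summed to 366, 375 and 540 counts, COL1A2, COL3A1, DCN and LUM were at 0 and COL1A1 held most. Of the 5 endothelial markers, which summed to 18, 6 and 19 counts, CDH5, KDR and TEK were at 0 in every library. The most counted genes of these lists were IFITM3 with 158, 449 and 103 counts in siPRMT6-1, siPRMT6-2 and siNC, KRT8 with 681, 770 and 1329, COL1A1 with 354, 370 and 515, CD68 with 19, 56 and 17, and PECAM1 with 16, 5 and 19. Strand bears on what every count below stands for: genes that overlap another on the opposite strand in their exons are 13.6% of all genes but held 49.2%, 47.6% and 51.3% of the counts of siPRMT6-1, siPRMT6-2 and siNC. If the strand setting of the counting were the reverse of the kit's, the counts of all 59 genes would be reads from the other strand, and this was not tested. The part of these differences in the results below was not tested.

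Promoter letters, which the choice by name did not use, differed in frequency between the 2 phases. RefSeq start sites on GRCh38.p14 gave windows from 250 bases before to 50 bases after the start for 52 of the 59 genes, 26 in each phase, and some genes have several starts. The windows were searched on both strands for the E2F motif (TTTCCCGC, TTTGGCGC, TTTGCCGC or TTTCGCGC), the CHR element TTTGAA and the CCAAT box CCAAT. An E2F match lay in 14 of 33 S phase windows (42.4%) and 3 of 35 G2/M windows (8.57%), against 3.31% of all 35116 windows. A CHR match lay in 21 of 35 G2/M windows (60.0%) and 1 of 33 S phase windows (3.03%), against 15.2% of all windows. CCAAT matches were frequent in both phases, in 69.7% of S phase and 74.3% of G2/M windows, against 34.6% of all windows. A match is a description of the letters, not a bound site. MCM4, MCM5, CCNE2, AURKA, TTK, TPX2 and UBE2C have no entry in the table.

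**Figure D1:**
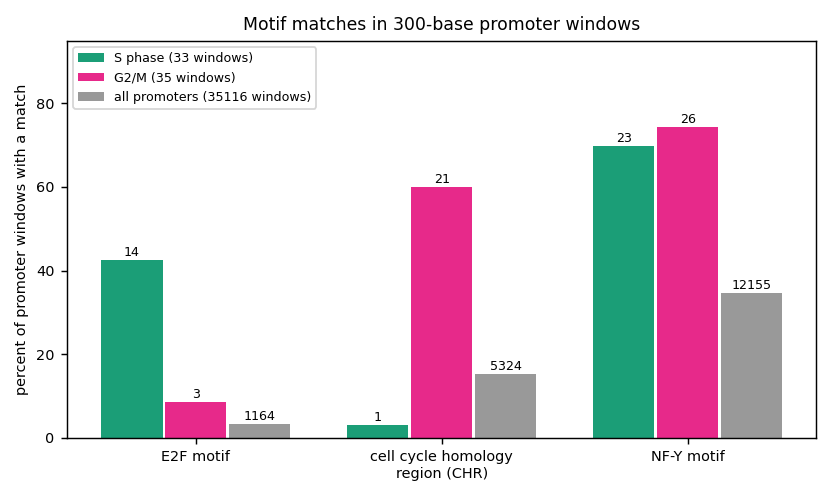
Share of promoter windows with at least 1 match to each motif, in percent, for the S phase genes, the G2/M genes and all promoters, with the number of windows above each bar and the CCAAT box labelled by NF-Y, the factor known to bind it. E2F matches were most frequent in S phase windows (42.4%) and CHR matches in G2/M windows (60.0%), while CCAAT matches were frequent in both.

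Windows of 5 genes whose counts stood apart between libraries are shown, 3 of S phase and 2 of G2/M, so that both promoter types can be compared. Each is written 5′ to 3′ on the gene's own strand, from RefSeq on GRCh38.p14, and capitals mark E2F, CHR and CCAAT matches on either strand.
PCNA: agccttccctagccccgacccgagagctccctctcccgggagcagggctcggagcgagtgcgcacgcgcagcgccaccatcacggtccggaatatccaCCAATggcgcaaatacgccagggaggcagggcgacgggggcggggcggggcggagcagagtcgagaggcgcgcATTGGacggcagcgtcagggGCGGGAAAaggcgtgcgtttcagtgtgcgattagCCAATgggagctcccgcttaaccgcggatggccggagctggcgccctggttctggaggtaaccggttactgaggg
MCM7: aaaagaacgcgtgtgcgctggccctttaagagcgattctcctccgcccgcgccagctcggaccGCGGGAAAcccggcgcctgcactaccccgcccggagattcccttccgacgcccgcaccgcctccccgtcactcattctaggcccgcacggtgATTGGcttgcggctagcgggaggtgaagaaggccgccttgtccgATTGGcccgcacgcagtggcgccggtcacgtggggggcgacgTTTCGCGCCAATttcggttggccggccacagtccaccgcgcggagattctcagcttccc
TYMS: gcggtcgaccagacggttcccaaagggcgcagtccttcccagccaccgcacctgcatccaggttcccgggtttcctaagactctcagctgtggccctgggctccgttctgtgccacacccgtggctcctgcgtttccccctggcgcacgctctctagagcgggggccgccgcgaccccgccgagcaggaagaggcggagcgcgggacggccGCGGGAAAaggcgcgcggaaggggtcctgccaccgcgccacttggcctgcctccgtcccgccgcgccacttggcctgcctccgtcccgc
DLGAP5: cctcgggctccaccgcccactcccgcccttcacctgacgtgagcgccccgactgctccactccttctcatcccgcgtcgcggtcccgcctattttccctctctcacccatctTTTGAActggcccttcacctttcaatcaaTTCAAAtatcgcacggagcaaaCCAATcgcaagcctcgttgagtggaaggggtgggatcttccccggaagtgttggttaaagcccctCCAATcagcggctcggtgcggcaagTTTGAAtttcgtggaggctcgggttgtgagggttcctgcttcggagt
PRC1: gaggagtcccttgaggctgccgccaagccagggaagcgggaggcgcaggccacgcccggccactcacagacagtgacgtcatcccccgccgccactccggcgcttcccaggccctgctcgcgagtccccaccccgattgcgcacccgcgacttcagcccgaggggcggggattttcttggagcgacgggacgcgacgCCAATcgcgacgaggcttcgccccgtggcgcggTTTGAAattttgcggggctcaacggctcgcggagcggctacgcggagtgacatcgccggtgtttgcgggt
The PCNA window (chr20:5126573-5126872, minus strand) has 1 E2F match and 3 CCAAT matches. The MCM7 window (chr7:100101348-100101647, minus strand) has 2 E2F matches and 3 CCAAT matches, 1 of which overlaps an E2F match. The TYMS window (chr18:657403-657702, plus strand) has 1 E2F match and no CCAAT match. The DLGAP5 window (chr14:55191536-55191835, minus strand) has 3 CHR matches and 2 CCAAT matches. The PRC1 window (chr15:90994486-90994785, minus strand) has 1 match of each of these 2 kinds.

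Summed over each phase, the counts of both knockdown libraries stayed within counting error of siNC. The 29 S phase genes held 771 counts in siPRMT6-1, 746 in siPRMT6-2 and 837 in siNC. Scaled by TMM library sizes, the ratio to siNC was 0.959 (interval 0.868 to 1.06) with siPRMT6-1 and 1.04 (0.943 to 1.15) with siPRMT6-2. The 30 G2/M genes held 799 counts in siPRMT6-1, 662 in siPRMT6-2 and 786 in siNC. Their ratio to siNC was 1.06 (0.957 to 1.17) with siPRMT6-1 and 0.985 (0.886 to 1.09) with siPRMT6-2. Counting error thus leaves room for a difference of up to the bounds given. Over all 59 genes the ratio was 1.01 with either siRNA (0.939 to 1.08 and 0.944 to 1.09). The G2/M value depended on its most counted gene, CCNA2: without it the ratio with siPRMT6-1 was 1.13 (1.02 to 1.26), an interval above 1, and that with siPRMT6-2 was 1.01 (0.903 to 1.14).

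Between the 2 siRNAs, the phases leaned in opposite directions by amounts near the counting error. The ratio of siPRMT6-2 to siPRMT6-1 was 1.09 (0.981 to 1.20) for the S phase genes and 0.931 (0.838 to 1.03) for the G2/M genes. The G2/M interval lay below 1 when counts were scaled by library totals in place of TMM (0.873, 0.787 to 0.969) or when CCNA2 was left out (0.893, 0.798 to 0.999). S phase counts divided by G2/M counts gave 0.965 (0.873 to 1.07) in siPRMT6-1, 1.13 (1.01 to 1.25) in siPRMT6-2 and 1.06 (0.965 to 1.18) in siNC. Set against each other, siPRMT6-2 over siPRMT6-1 gave 1.17 (exact conditional interval 1.01 to 1.35), an interval that just clears 1. It spanned 1 without PCNA (1.13, 0.978 to 1.31) and without the genes that have an opposite-strand partner (1.04, 0.862 to 1.26). Against siNC it was 0.906 (0.787 to 1.04) with siPRMT6-1, or 0.846 (0.730 to 0.980) without CCNA2, and 1.06 (0.915 to 1.22) with siPRMT6-2. The median log2 fold change against siNC, over the 22 genes of each phase that passed the filter on low counts, was 0.03 with siPRMT6-1 and 0.02 with siPRMT6-2 for S phase, and 0.15 and 0.02 in the same order for G2/M. Over all 6803 genes tested it was 0.01 with either siRNA. With library totals in place of TMM, both siPRMT6-2 medians were below 0 (-0.01 for S phase and -0.02 for G2/M). Without the genes that have an opposite-strand partner, the S phase median with siPRMT6-1 was 0.19 and the G2/M median with siPRMT6-2 was 0.21.

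**Figure D2:**
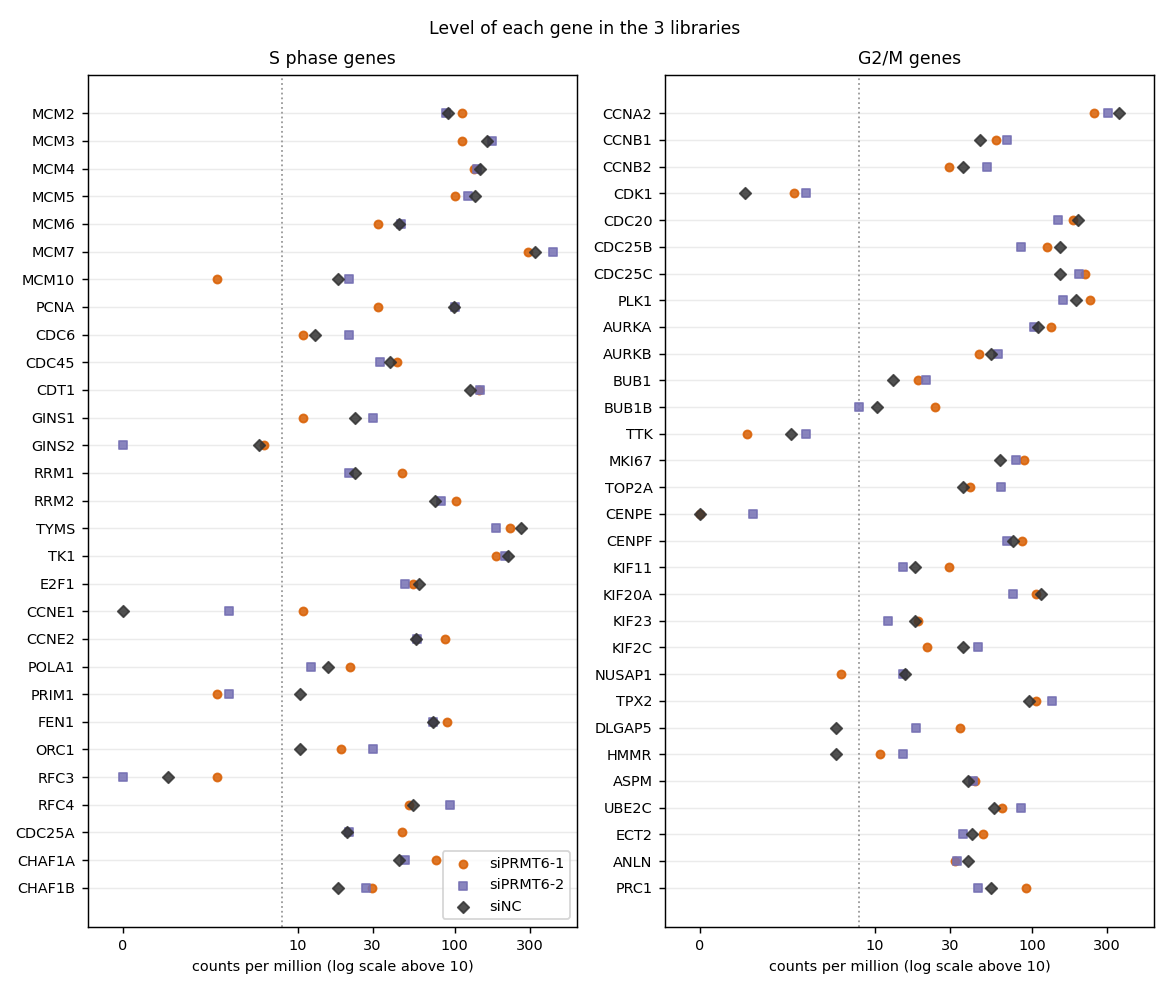
Depth-scaled counts (CPM, on an axis that is logarithmic above 10 and linear below) of each of the 59 genes in the siPRMT6-1, siPRMT6-2 and siNC libraries, S phase and G2/M genes apart. The dotted line is the highest of the 3 levels that 3 counts stand for (9.09 CPM), and most genes show the 3 libraries close together.

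No gene of either phase was called in the fit over the whole table. edgeR's quasi-likelihood test of both knockdown libraries against siNC called 0 of the 44 genes tested at an adjusted p under 0.05, and 0 of 44 had an unadjusted p under 0.05. The background was no higher at that threshold: 0% of all 6803 genes were called, and 186 had an unadjusted p under 0.05. DESeq2 called 0 genes in all, with 13 under 0.05 before adjustment. In edgeR, the earlier form of the quasi-likelihood fit and the likelihood ratio test called 32 and 31 genes, none of them among the 59. Fitted log2 fold changes ran from -0.59 to 1.21 in S phase and from -0.52 to 1.75 in G2/M, with lowest unadjusted p-values of 0.234 and 0.106. The test had 1 residual degree of freedom, and the spread of the single control was taken to equal that of the knockdown pair. PRMT6, the gene targeted by both siRNAs, was not called either, at a fitted log2 fold change of -2.01. The lack of calls therefore does not show that the 59 genes were unchanged.

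Counts were low for many of these genes. Of the 29 S phase genes, 22 passed the filter, and of the 30 G2/M genes, 22 passed, which leaves 7 S phase and 8 G2/M genes untested. The 4 S phase genes with under 10 counts over the 3 libraries were GINS2 and PRIM1, parts of the CMG helicase and of primase, CCNE1, a cyclin of the G1/S step, and RFC3, a clamp loader subunit. GINS2 had 3 counts in siPRMT6-1, 0 in siPRMT6-2 and 3 in siNC, PRIM1 had 2, 2 and 4, CCNE1 had 4, 2 and 0, and RFC3 had 2, 0 and 1 in that order. The 3 such G2/M genes were CDK1, the main mitotic kinase, with 2, 2 and 1 counts, TTK, a spindle checkpoint kinase, with 1, 2 and 2, and CENPE, a kinetochore motor, with 0, 1 and 0. Nothing can be read from a difference at that level. GINS1, RRM1, ORC1, CDC25A, CHAF1B, KIF11 and DLGAP5 passed only through a knockdown library. At the other end, the 6 most counted genes of each phase held 55.2% of the S phase counts and 53.1% of the G2/M counts.

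Against siNC, few genes stood outside counting error, and over both phases together the shares were no higher than among all genes. Over the 44 genes with at least 20 counts in all, the interval of the siPRMT6-1 ratio lay above 1 for 2 (4.55%) and below 1 for 2 (4.55%), against 5.34% above and 6.77% below among the 7093 genes with that many counts. With siPRMT6-2 it lay above 1 for 1 (2.27%) and below 1 for 2 (4.55%), against 8.57% and 8.22% of all such genes. For siPRMT6-2 against siPRMT6-1 it lay above 1 for 4 (9.09%) and below 1 for 2 (4.55%), against 10.4% and 8.91%. All 4 of the first were S phase genes (18.2% of 22) and both of the others were G2/M genes (9.09% of 22). Both genes above 1 with siPRMT6-1 were G2/M genes as well (9.09% of 22), but 1 of them, DLGAP5, reached 20 counts only through the knockdown libraries. With a minimum of 50 counts, 1 gene lay above 1 with siPRMT6-1. Scaled by library totals in place of TMM, 0 genes lay above 1 with siPRMT6-2 against siNC, in place of 1. Between the siRNAs, 2 genes then lay above 1, in place of 4. The genes concerned are described below by role, and the remaining ones by range.

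**Figure D3:**
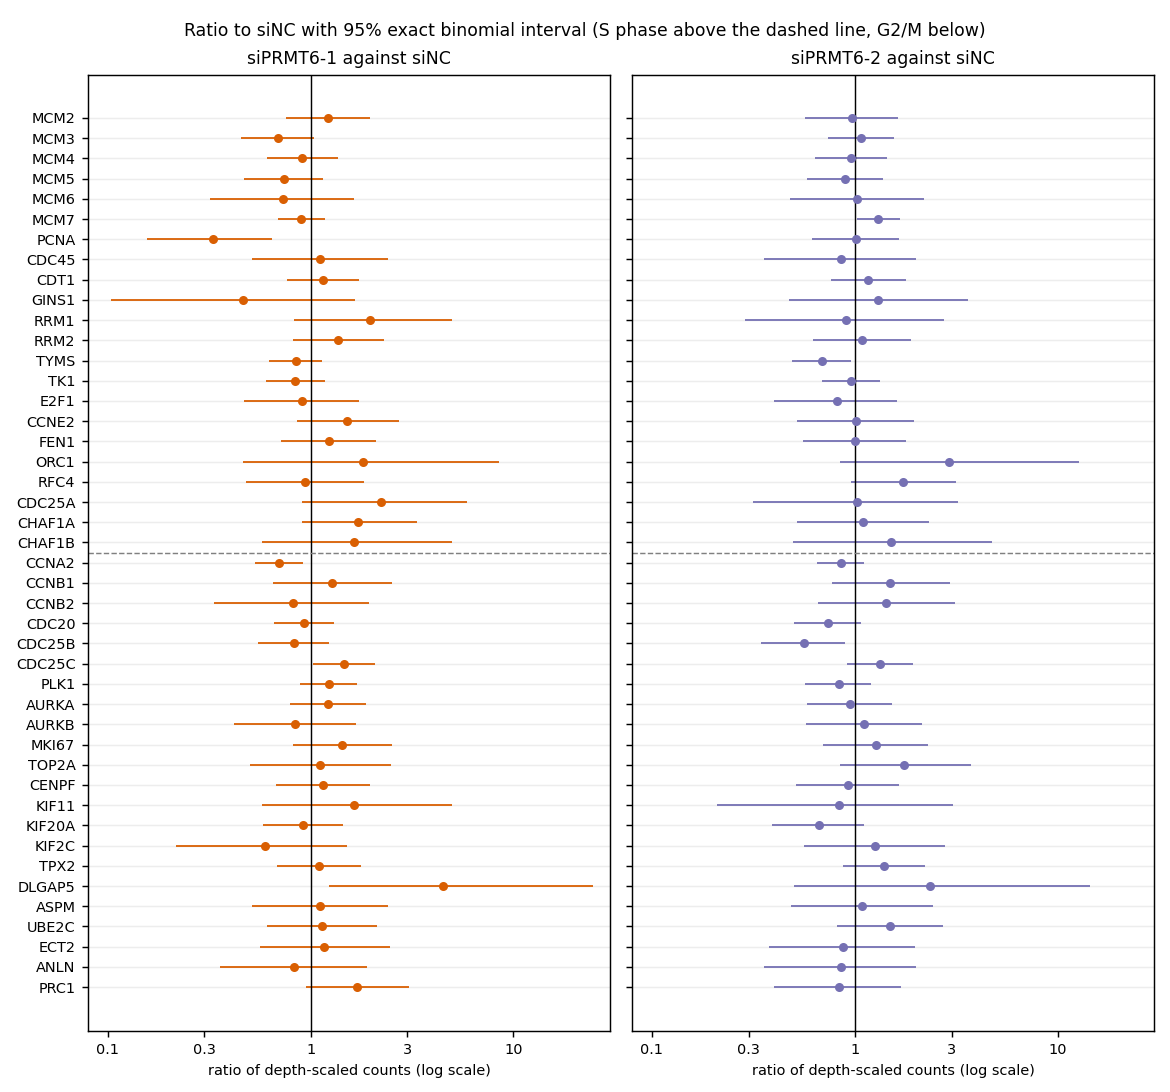
Ratio of depth-scaled counts to siNC (log axis) with its exact binomial 95% interval, for siPRMT6-1 on the left and siPRMT6-2 on the right, over the 44 genes with at least 20 counts, S phase above the dashed line and G2/M below. Most intervals span 1. PCNA with siPRMT6-1 (0.329) and DLGAP5 with siPRMT6-1 (4.51) lie farthest from it, DLGAP5 on very few siNC counts.

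The MCM helicase genes differed between the siRNAs, with an interval that spanned 1 once MCM7 was left out. MCM2 to MCM7, the 6 subunits of the replicative helicase, summed to 288 counts in siPRMT6-1, 327 in siPRMT6-2 and 347 in siNC. The ratio of siPRMT6-2 to siPRMT6-1 was 1.28 (1.09 to 1.50), and without MCM7 it was 1.17 (0.946 to 1.44). The ratios to siNC were 0.864 (0.736 to 1.01) with siPRMT6-1 and 1.10 (0.944 to 1.28) with siPRMT6-2. MCM7 (hg38 chr7:100092728-100101940, minus strand), the most counted gene of either phase, had 108, 140 and 125 counts in siPRMT6-1, siPRMT6-2 and siNC. Its ratio to siNC was 0.899 (0.689 to 1.17) with siPRMT6-1 and 1.31 (1.02 to 1.68) with siPRMT6-2, and siPRMT6-2 stood at 1.46 (1.12 to 1.89) of siPRMT6-1. With counts scaled by library totals in place of TMM, the interval of siPRMT6-2 against siNC no longer lay above 1. MCM3 (chr6:52264014-52284881, minus strand) had 41, 57 and 62 counts in the same order, so that siPRMT6-1 was the low library and siPRMT6-2 stood at 1.56 (1.03 to 2.39) of it. That interval no longer lay above 1 with library totals. MCM4, with 49, 46 and 56 counts, and MCM2, with 41, 29 and 35, did not share that order. CDT1, which loads the helicase at origins, had 53, 48 and 48.

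PCNA, the clamp that holds polymerases on DNA, had the lowest ratio to siNC of the 44 genes. The gene (chr20:5114953-5126622, minus strand) had 12 counts in siPRMT6-1, 33 in siPRMT6-2 and 38 in siNC. The siPRMT6-1 library stood alone and low, at a ratio of 0.329 (0.156 to 0.642) to siNC, while siPRMT6-2 was at 1.02 (0.617 to 1.66) and stood at 3.09 (1.55 to 6.57) of siPRMT6-1. Since both siRNAs are set together against siNC, edgeR gave a log2 fold change of -0.59 with a standard error of 0.60 and an adjusted p of 1.00 in its quasi-likelihood test. Without PCNA the S phase sum with siPRMT6-1 was 0.989 of siNC. RFC4, a subunit of the loader that places the clamp, had 19, 31 and 21 counts in siPRMT6-1, siPRMT6-2 and siNC, and siPRMT6-2 stood at 1.83 (1.00 to 3.43) of siPRMT6-1. This interval no longer lay above 1 with counts scaled by library totals in place of TMM.

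The thymidylate genes were the highest of the 59 per length in siNC. TYMS, which makes thymidylate, and TK1, which salvages thymidine, had 167 and 136 CPM per kilobase of exon in siNC, against a median of 18.8 over the S phase genes there. TYMS shares 56.1% of its exon bases with ENOSF1 on the opposite strand, so its level may not be that of TYMS alone. TYMS (chr18:657604-673499, plus strand) had 83 counts in siPRMT6-1, 60 in siPRMT6-2 and 102 in siNC. Both knockdown libraries lay below siNC, at 0.847 (0.626 to 1.14) with siPRMT6-1 and 0.688 (0.491 to 0.955) with siPRMT6-2. TK1 had 68, 69 and 84 counts in the same order, with intervals that spanned 1. The large and small subunits of ribonucleotide reductase, RRM1 and RRM2, had 17, 7 and 9 counts and 38, 27 and 29 counts. Among the S phase genes whose interval spanned 1, the ratios with siPRMT6-1 ran from 0.463 for GINS1 to 2.21 for CDC25A, and those with siPRMT6-2 from 0.813 for E2F1 to 2.92 for ORC1, the wide ends being genes of few counts.

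Of the mitotic cyclins, only CCNA2 had an interval off 1, with siPRMT6-1. CCNA2 (chr4:121816444-121823933, minus strand), the cyclin of late S phase and G2, had 92 counts in siPRMT6-1, 100 in siPRMT6-2 and 137 in siNC, the most of the G2/M genes. Its ratio was 0.699 (0.531 to 0.917) with siPRMT6-1 and 0.853 (0.653 to 1.11) with siPRMT6-2. Cyclins B1 and B2 did not share this order: CCNB1 had 22, 23 and 18 counts and CCNB2 had 11, 17 and 14. The CDC25 phosphatases, which switch on the cyclin kinases, did not lie on the same side of siNC. CDC25C (chr5:138285265-138338355, minus strand) had 81, 66 and 58 counts in siPRMT6-1, siPRMT6-2 and siNC, above siNC in both libraries, at 1.45 (1.02 to 2.07) and 1.33 (0.921 to 1.93) in that order. CDC25B (chr20:3786772-3806121, plus strand) had 46, 28 and 58 counts, below siNC in both, at 0.825 (0.548 to 1.24) and 0.564 (0.346 to 0.901). CDC25A, an S phase phosphatase, had 17, 7 and 8.

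Among the mitotic kinases and the exit genes, PLK1 had an interval off 1, between the siRNAs. PLK1 (chr16:23678822-23690367, plus strand), a kinase of mitotic entry and spindle assembly, had 86 counts in siPRMT6-1, 52 in siPRMT6-2 and 73 in siNC. The siPRMT6-2 library stood at 0.679 (0.472 to 0.969) of siPRMT6-1, and siNC lay between them. CDC20, the activator of the anaphase-promoting complex, had 68, 48 and 76 counts, and AURKA, a spindle pole kinase, had 49, 34 and 42. For both, each interval spanned 1.

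A spindle gene gave the highest ratio, on few counts. DLGAP5 (chr14:55148116-55191678, minus strand), a microtubule-binding spindle protein, had 13 counts in siPRMT6-1, 6 in siPRMT6-2 and 3 in siNC. Its ratio with siPRMT6-1 was 4.51 with an interval of 1.24 to 24.7, and with siPRMT6-2 2.34 (0.499 to 14.4). The siNC library was at the level of 3 counts, where a ratio is poorly set. PRC1 (chr15:90966038-90994651, minus strand), which bundles microtubules between the separating chromosomes, had 34, 15 and 21 counts in siPRMT6-1, siPRMT6-2 and siNC, so siPRMT6-2 stood at 0.496 (0.251 to 0.935) of siPRMT6-1. MKI67, the proliferation antigen Ki-67, had 33, 26 and 24 counts in that order, and TOP2A, the topoisomerase that untangles chromosomes, 15, 21 and 14. Neither had an interval off 1. Among the G2/M genes whose interval spanned 1, ratios ran from 0.595 for KIF2C to 1.68 for PRC1 with siPRMT6-1 and from 0.664 for KIF20A to 2.34 for DLGAP5 with siPRMT6-2.

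For 12 of these genes the other strand carries a counted gene of its own. Those 12 (20.3%, against 13.6% of all genes) overlap, in their exons, the exons of another gene that runs the other way, in 13 pairs, 5 of the genes in S phase and 7 in G2/M. In GENCODE release 29, opposite-strand exons overlap 18 of the 59 genes. In 7 of the 13 pairs the partner held more counts than the gene itself in each library. Reads of one gene of a pair and of the other cannot be told apart from the table alone, so counts of the genes named above that have a partner (MCM7, PCNA, TYMS, RFC4, CCNA2, CDC25C, PLK1 and PRC1) are uncertain on this ground too. Of the genes with an interval off 1, DLGAP5 with siPRMT6-1, CDC25B with siPRMT6-2 and MCM3 between the siRNAs have no partner in the table, which does not show that their counts are free of reads from the other strand.

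**Figure D4:**
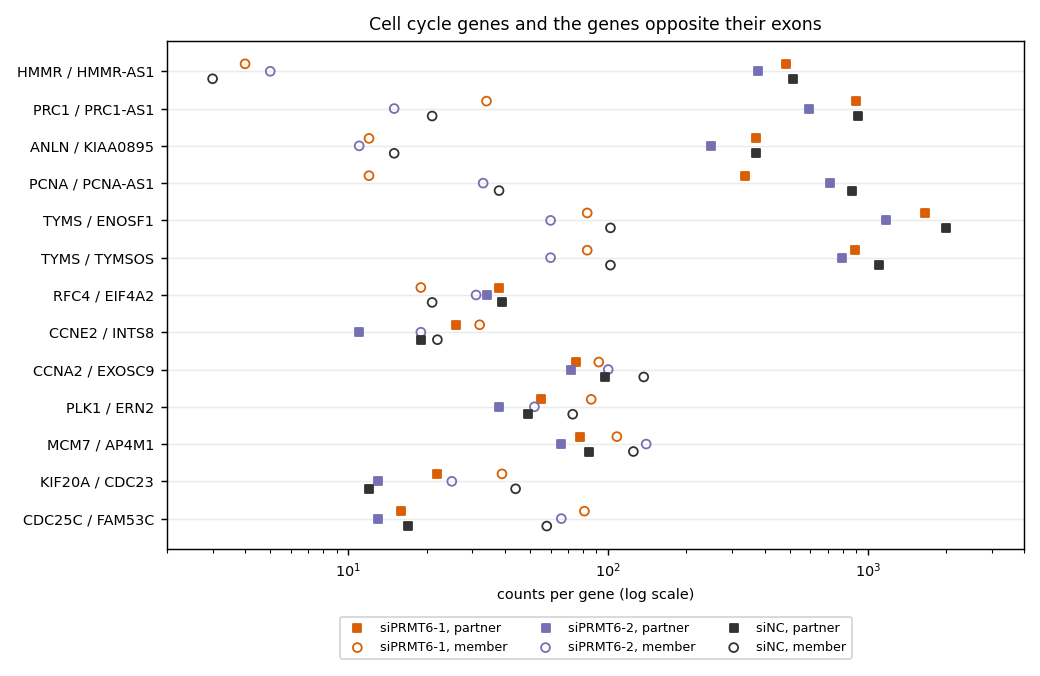
Counts (log axis) of each gene and of its opposite-strand partner in the siPRMT6-1, siPRMT6-2 and siNC libraries, for 13 pairs, with filled squares for partners and open circles for the genes. In 7 pairs, among them PCNA with PCNA-AS1 and TYMS with ENOSF1, the partner lies above the gene in every library.

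PCNA-AS1 shows the extreme case. This noncoding gene is 384 bases long (chr20:5119586-5119969, plus strand) and lies wholly inside PCNA exons, 213 of its bases in the coding sequence. It had 335 counts in siPRMT6-1, 717 in siPRMT6-2 and 870 in siNC, many times the 12, 33 and 38 of PCNA. Per kilobase of exon that is 872, 1867 and 2266 counts for PCNA-AS1 and 8.32, 22.9 and 26.4 for PCNA. Its ratio to siNC was 0.401 (0.352 to 0.455) with siPRMT6-1 and 0.963 (0.871 to 1.06) with siPRMT6-2, so siPRMT6-1 was the low library for both genes of the pair. The same pairing showed for TYMS. ENOSF1, which shares 888 exon bases with it, had 1661 counts in siPRMT6-1, 1172 in siPRMT6-2 and 1998 in siNC, at 0.865 (0.810 to 0.924) and 0.686 (0.637 to 0.737) of siNC in that order. TYMSOS, at the start of TYMS, had 895, 797 and 1106 counts, at 0.842 of siNC in both libraries.

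PRC1-AS1, opposite PRC1, had 902 counts in siPRMT6-1, 594 in siPRMT6-2 and 915 in siNC. The siPRMT6-2 library stood at 0.740 (0.666 to 0.821) of siPRMT6-1, the direction of PRC1 itself, and its ratio to siNC was 0.759 (0.683 to 0.842), where the interval of PRC1 spanned 1. HMMR, a spindle and hyaluronan-binding protein, had 4, 5 and 3 counts and HMMR-AS1 482, 377 and 513. ANLN, a cytokinesis scaffold, had 12, 11 and 15 counts, and KIAA0895 opposite it 372, 248 and 369. The other partners were lower and closer to their genes. AP4M1 opposite MCM7 had 78, 66 and 84 counts, EXOSC9 opposite CCNA2 had 75, 72 and 97, and ERN2 opposite PLK1 had 55, 38 and 49, each with intervals that spanned 1. EIF4A2, which shares only 4 bases with RFC4, had 38, 34 and 39. FAM53C opposite CDC25C had 16, 13 and 17 counts, CDC23 opposite KIF20A 22, 13 and 12, and INTS8 opposite CCNE2 26, 11 and 19.

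Summed over the partner genes in place of the genes themselves, several intervals lay below 1. The 6 S phase partners summed to 3033 counts in siPRMT6-1, 2797 in siPRMT6-2 and 4116 in siNC, a ratio to siNC of 0.767 (0.731 to 0.804) and 0.794 (0.757 to 0.834). The 7 G2/M partners summed to 1924, 1355 and 1972 counts, at 1.02 (0.953 to 1.08) with siPRMT6-1 and 0.803 (0.749 to 0.861) with siPRMT6-2. ENOSF1, TYMSOS and PCNA-AS1 hold most of the S phase partner counts. The 5 S phase genes that have these partners were at 0.858 (0.724 to 1.02) and 1.07 (0.911 to 1.27) of siNC. Which strand the reads came from was not tested.

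Split by promoter letters, the G2/M genes gave sums on opposite sides of siNC with siPRMT6-1. This split was made after values were seen and has no test. The 18 G2/M genes with a CHR match in any window summed to 455 counts in siPRMT6-1, 335 in siPRMT6-2 and 386 in siNC, at 1.23 (1.07 to 1.41) and 1.01 (0.874 to 1.18) of siNC in that order. The 8 with windows but no CHR match, among them CCNA2, summed to 231, 219 and 297 counts, at 0.809 (0.679 to 0.965) and 0.862 (0.721 to 1.03). Only the exact letters TTTGAA were searched, so a gene without a match is not shown to lack the element. The lower value rests in part on CCNA2: without it the ratio with siPRMT6-1 was 0.904 (0.715 to 1.14). Without PLK1, the most counted gene with a CHR match, the higher one was 1.23 (1.05 to 1.43). PLK1 itself stood at 1.23 of siNC with siPRMT6-1, so leaving it out could hardly move that value. DLGAP5 and PRC1, which also have CHR matches and had higher ratios with siPRMT6-1, were not left out. The 14 S phase genes with an E2F match summed to 408, 426 and 482 counts, at 0.881 (0.770 to 1.01) and 1.03 (0.905 to 1.18), and the 12 without to 245, 215 and 225, at 1.13 (0.942 to 1.36) and 1.12 (0.922 to 1.35).

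Other genes of the cell cycle were looked at in 9 lists. edgeR's quasi-likelihood test called none of them, as it called no gene of the whole table, so this is not particular to the lists. Of the regulators, G1 cyclins and kinases summed to 195 counts in siPRMT6-1, 202 in siPRMT6-2 and 199 in siNC, with CCND1, cyclin D1, the highest at 83, 110 and 110. CDK inhibitors and the RB family had 36, 51 and 40 counts, of which RBL2, an RB relative opposite AKTIP, had 10, 7 and 10. E2F, DREAM and FOXM1 regulators, led by MYBL2, the mitotic activator B-MYB, summed to 279, 247 and 314. Other replication factors, led by the maintenance methyltransferase DNMT1, summed to 694, 655 and 708. The intervals of all 4 sums spanned 1 against siNC with both siRNAs.

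Further mitosis lists were less even, and leaving out the most counted gene moved some of them more than others. Kinetochore and spindle checkpoint genes summed to 419, 282 and 413 counts, and with siPRMT6-2 stood at 0.798 (0.684 to 0.931) of siNC, with the interval below 1 for 4 of 9 genes of at least 20 counts, against 8.22% of all such genes. CENPN, a centromere protein opposite CMC2, had 165, 82 and 168 of these, and without it the ratio was 0.954 (0.788 to 1.15). Of the 8 genes of this list that were tested, 5 lay below siNC with siPRMT6-2 and 3 above, with a median log2 fold change of -0.60. Cohesin, condensin and separase genes summed to 420, 475 and 438, at 1.27 (1.11 to 1.45) with siPRMT6-2, and without the condensin II subunit NCAPH2, opposite SCO2, the ratio was 0.853 (0.712 to 1.02). NCAPG, a condensin I subunit opposite LCORL, had 25, 14 and 48 counts, with intervals below 1 for both siRNAs. The anaphase-promoting complex summed to 990, 771 and 1080, at 0.835 (0.760 to 0.916) with siPRMT6-2. ANAPC11, a catalytic subunit opposite ALYREF, had 675, 501 and 710 of those counts. Without it the ratio with siPRMT6-2 was 0.853 (0.726 to 1.00), little changed, with a wider interval on fewer counts.

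Mitotic kinesins and cytokinesis genes beyond those of the main set summed to 413, 372 and 365 counts. They stood at 1.18 (1.02 to 1.36) of siNC with siPRMT6-1 and 1.19 (1.03 to 1.38) with siPRMT6-2. Without NUMA1, a spindle pole protein opposite IL18BP with 170, 145 and 148 counts, the ratios were 1.17 (0.966 to 1.41) and 1.22 (1.01 to 1.48). CEP55, which acts in the final cut between daughter cells, had 14, 13 and 3 counts, at 4.86 (1.36 to 26.4) and 5.07 (1.39 to 27.7). Its siNC level is that of 3 counts and it reached 20 counts only through the knockdown libraries. Without it the list stood at 1.15 (0.992 to 1.33) and 1.16 (0.999 to 1.35), both spanning 1. Checkpoint and repair signalling genes summed to 935, 909 and 1071, at 0.909 (0.831 to 0.993) with siPRMT6-1 and 0.992 (0.907 to 1.08) with siPRMT6-2. RAD9A, a clamp of the DNA damage checkpoint opposite PPP1CA, held 439, 395 and 536 of these, below siNC with both siRNAs, and without it the ratio with siPRMT6-1 was 0.965 (0.852 to 1.09).

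**Figure D5:**
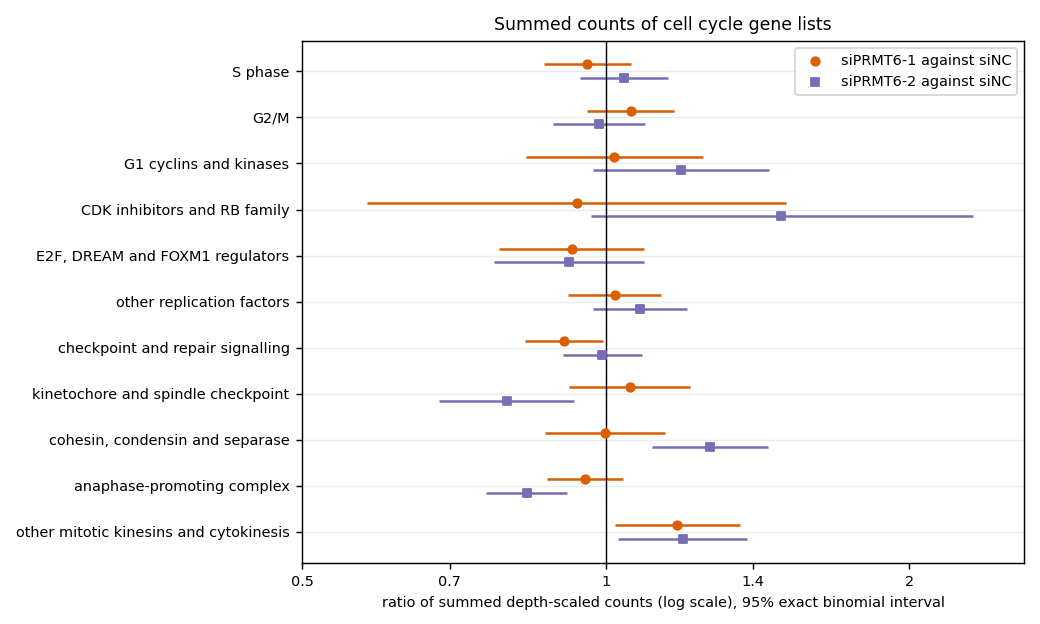
Ratio of summed depth-scaled counts to siNC (log axis) with exact binomial 95% intervals, for the S phase genes, the G2/M genes and the 9 further cell cycle lists, with siPRMT6-1 and siPRMT6-2. The S phase and G2/M sums lie at 0.959 to 1.06 of siNC with intervals that span 1, and the widest interval is that of the CDK inhibitors and the RB family.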

How the data were processed

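Total RNA of 3 HEC1B libraries was sequenced. Per the labels' protocols, libraries were made from 10 ng of total RNA with a stranded low-input kit (SMARTer v2 Pico). The submitters' processing notes name STAR 2.7.8a as aligner, hg38 as build and featureCounts 2.0.10. Per the file headers, featureCounts was 2.0.1 with strand setting 1, and overlapping genes each received a shared read. The table deposited by the authors holds raw counts, not normalized. Columns call the siRNAs si2 and si3 where titles have siPRMT6-1 and siPRMT6-2, so values per siRNA assume that title and description of a sample name the same siRNA. Whether the libraries are separate cultures is not given. The p-values rest on the spread between the siPRMT6-1 and siPRMT6-2 libraries alone. That spread includes any difference between the siRNAs themselves and may otherwise be technical.

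From the counts, edgeR 4.0.16 (R 4.3.3; TMM, filterByExpr with a minimum count of 10 and a minimum total of 15) fitted both knockdown libraries against siNC with the quasi-likelihood F-test, two-sided, Benjamini-Hochberg adjusted p under 0.05 over all 6803 genes tested, a fit also tested on simulated data. Intervals at 95% are exact binomial for a ratio of depth-scaled counts. Log2 fold changes per siRNA used a prior count of 2. The floor of 3 counts equals 8.09 CPM in siPRMT6-1, 9.09 in siPRMT6-2 and 7.78 in siNC. Opposite-strand partners share exon bases in the deposited gene models, and 12 of the 59 genes have a named pseudogene in GENCODE release 29, whose reads can be shared. Alternatives were DESeq2 1.42.0, other edgeR tests, scalings, filters and prior counts, and leaving genes out. Leaving out PCNA, CEP55 or the most counted gene of the MCM set or of a further list, and comparing S phase to G2/M ratios between libraries (exact conditional odds ratio), were chosen after seeing the data. Single genes are named if they were among the 6 most counted of a phase, had an interval off 1 with at least 20 counts, had under 10 counts, or had a partner, and from each further list the most counted gene and those off 1 the same way with both siRNAs; other genes are given as examples or ends of a range. The 59 genes and the lists were chosen with earlier results of these data known.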

Additional observations from a re-analysis of the deposited data

How the results depend on the processing

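Of 108 alternative values, 97 lay inside the interval of the reported value or within 1.5 times of a reported count. With the opposite-strand partners in place of the genes, chosen after seeing the data, the S phase ratio to siNC was 0.767 with siPRMT6-1, 0.794 with siPRMT6-2 and 0.780 with both siRNAs. The G2/M ratio was then 0.803 with siPRMT6-2 and 0.915 with both siRNAs, and 0.791 for siPRMT6-2 against siPRMT6-1. Without genes that have such a partner, 1 gene in place of 4 had an interval off 1 with siPRMT6-1, 1 in place of 3 with siPRMT6-2 and 1 in place of 6 between the siRNAs. Genes called over the whole table were 32 with the older quasi-likelihood fit and 31 with the likelihood ratio test, against 0 in the main test. The cause was not tested. The G2/M median log2 fold change of siPRMT6-2 against siPRMT6-1, over the tested genes -0.14, was 0.01 over all genes with a count. Leaving out each knockdown library, the ratio of both siRNAs to siNC ran from 0.959 to 1.04 for S phase and from 0.985 to 1.06 for G2/M. The tests over all genes were not run without a knockdown library, since that leaves no residual degree of freedom. No paired analysis was possible because there is only 1 siNC library. Limits are the strand of the counts, which was not tested, and 1 library for each siRNA and for the control. Low assigned counts are another limit, since genes under 10 counts carry no readable difference.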
